A study of Lolium perenne with 10 samples.

Results

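The 150 transcript clusters whose level varied least over drought, submergence, a pair of temperature treatments and control were examined in leaves of Lolium perenne (perennial ryegrass), a grass sown for forage and lawns. They were taken from 46394 clusters in a table of RNA-seq read counts. A cluster here is taken to be a group of assembled sequences that stands for a gene, which was not tested. Of these, 17033 clusters had at least 10 counts in both control libraries, and 6223 of those averaged at least 20 CPM over the 10 libraries. CPM is the count scaled to a common library depth and to a TMM factor, which is computed on the assumption that most clusters do not change between libraries. The 6223 eligible clusters were ranked by their range, the highest minus the lowest value of log2(CPM + 1) over the 10 libraries, and the 150 with the smallest range were taken. Small differences between libraries are thus what the clusters were picked for, and their ranges, levels and fold changes are given as a description without a test.

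The 10 libraries form 5 groups of 2, all labelled WT and leaf. Drought seedlings went without water for 7 days from an age of 7 days, and the temperature treatments lasted 12 h in seedlings 14 days old, one at 4 °C and one at 42 °C. The title and the treatment field of each temperature library contradict each other, so the names title-cold and title-heat used here follow the titles alone, and neither group is given a temperature. For submergence and control the labels give neither duration nor age, and a label text that speaks of Arabidopsis and another of bermudagrass may belong to other experiments. Libraries were made from 30 seedlings each, kept at day and night temperatures of 22 and 18 °C. Nothing in the labels says that libraries of a group came from separate cultures beyond their own seedlings, so the spread between them may be in part technical. Total counts per library were 10847727 to 12605087. The libraries of a group were distinct beyond counting error (chi-square over degrees of freedom 7.71 or more), and every library was used as its own replicate.

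Genes of steady level are used as internal references in quantitative PCR, where the level of a gene of interest is divided by that of the reference. In plants the usual choices serve basic functions of every cell, among them actin and tubulin of the cytoskeleton, ubiquitin of protein turnover and elongation factors of translation. Drought, flooding, cold and heat can each shift such genes, so a reference is commonly checked in the tissue and treatment at hand. The files do not pair clusters with gene names, and 0 of the 46394 identifiers matched the 56406 genes of the Kyuss_2.0 reference table. It is therefore not known which functions the 150 clusters serve or whether the usual references are among them, no marker of leaf tissue could be looked up, and no sequence is shown.

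Among the 150 clusters the highest library exceeded the lowest by 1.16-fold to 1.53-fold, with a median of 1.42-fold. On the log2 scale their ranges ran from 0.21 to 0.59 with a median of 0.49, against a median of 1.91 over the 6223 eligible clusters. Only 4 clusters had a range of 0.3 or less, 28 had 0.4 or less and 81 had 0.5 or less. Of the 6223 eligible clusters, 931 kept within 1 log2 unit and 2938 spanned over 2 log2 units. In bulk leaf tissue, fewer cells of a type and less RNA per cell cannot be told apart. A steady CPM here is steady relative to the TMM scaling, and is neither a steady share of all counts nor a steady amount per cell.

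The steadiest cluster was c153369.graph_c0. It had 63.3 and 64.2 CPM under drought, 62.7 and 63.4 CPM under submergence, 56.7 and 57.3 CPM in title-cold and 62.6 and 65.7 CPM in title-heat, against 65.4 and 61.8 CPM in control. Both title-cold libraries lay below the other 8, which were within a few CPM of each other. Its mean was 62.3 ± 3.04 CPM (SD, n = 10) and its range 0.21 on the log2 scale. These levels rest on 538 to 978 counts per library, and counting error alone would give a cluster of this level a range of about 0.17.

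The second, c158000.graph_c0, had 53.4 and 56.0 CPM under drought, 59.2 and 59.3 CPM under submergence, 61.1 and 58.8 CPM in title-cold and 61.2 and 64.2 CPM in title-heat, against 59.1 and 56.6 CPM in control. Both drought libraries were the lowest of the 10. The third, c165557.graph_c0, had 27.1 and 25.3 CPM under drought, 24.3 and 22.8 CPM under submergence, 23.8 and 24.6 CPM in title-cold and 22.2 and 25.5 CPM in title-heat, against 22.3 and 24.0 CPM in control. Title-heat held its lowest and its second-highest library, so libraries of one group differed about as much as the groups did. Its range of 0.28 equalled the 0.27 to be expected from counting error alone, a ratio of 1.003, the lowest among the 6223 clusters.

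The fourth, c162876.graph_c0, had 37.0 and 38.8 CPM under drought, 39.7 and 35.7 CPM under submergence, 34.8 and 42.4 CPM in title-cold and 41.0 and 38.1 CPM in title-heat, against 36.0 and 40.7 CPM in control. Its lowest and highest values both came from title-cold, and its 5 group means spanned 0.07 on the log2 scale, the least of all eligible clusters. The fifth, c161928.graph_c0, had 43.2 and 42.9 CPM under drought, 45.5 and 41.9 CPM under submergence, 36.8 and 37.1 CPM in title-cold and 37.2 and 43.6 CPM in title-heat, against 45.7 and 45.5 CPM in control. The title-cold pair was the lowest, with one title-heat library beside it.

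The sixth, c157037.graph_c0, had 53.7 and 56.5 CPM under drought, 52.8 and 56.8 CPM under submergence, 53.3 and 47.4 CPM in title-cold and 48.2 and 49.9 CPM in title-heat, against 47.7 and 45.6 CPM in control. Drought, submergence and title-heat libraries lay above both controls, and one title-cold library lay between them. The seventh, c155984.graph_c0, had 56.2 and 60.5 CPM under drought, 51.3 and 59.1 CPM under submergence, 54.0 and 51.1 CPM in title-cold and 63.9 and 54.4 CPM in title-heat, against 55.9 and 61.7 CPM in control. The eighth, c163932.graph_c0, had 40.8 and 38.6 CPM under drought, 35.9 and 42.4 CPM under submergence, 33.9 and 36.2 CPM in title-cold and 38.3 and 39.7 CPM in title-heat, against 42.0 and 36.4 CPM in control. In both of these the title-cold libraries fell below the control pair, and the other treatments overlapped with it.

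**Figure D1:**
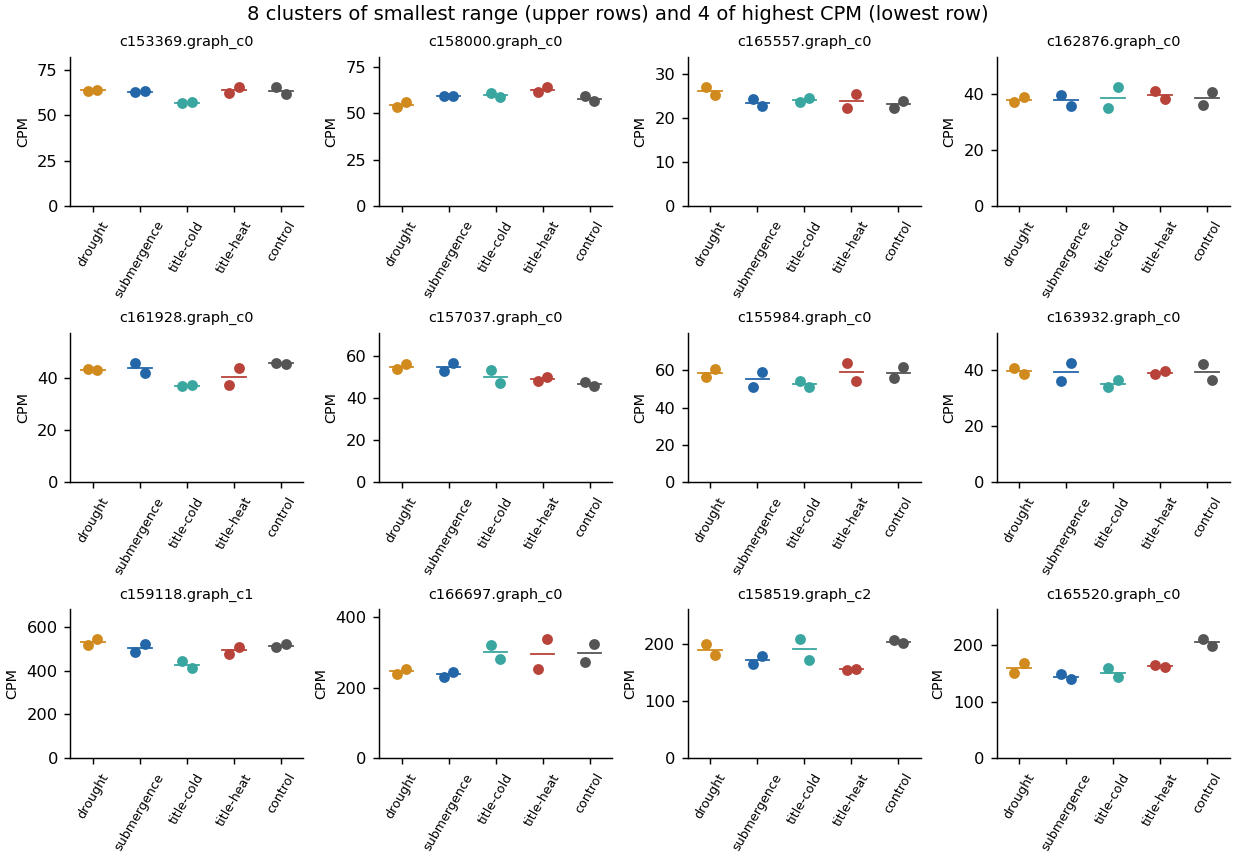
Level in CPM (vertical axes, from 0) of the 8 clusters of smallest range and of the 4 with the highest CPM, by group (horizontal axes); points are libraries, bars the mean of the 2 libraries of a group. The steadiest cluster, c153369.graph_c0, lies between 56.7 and 65.7 CPM in all 10 libraries, while c165520.graph_c0 lies at 140 to 168 CPM in the treatments and at 199 and 210 CPM in control.

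The limit of 150 cut through a continuous series of clusters. The last inside, c164688.graph_c0 with a mean of 33.5 CPM, had a range of 0.5894 and the first outside, c161357.graph_c0 with 43.4 CPM, a range of 0.5903. The next to last inside, c165520.graph_c0, had 0.5889 and the second outside, c162738.graph_c0, 0.5903. At the limit on level, the lowest mean inside was the 20.7 CPM of c158317.graph_c2, and with a limit of 10 CPM in place of 20 CPM, 35 of the 150 clusters chosen had a mean under 20 CPM. Clusters on either side of the limit of 150 were thus alike in range.

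The 150 clusters had a median of 38.6 CPM, from 20.7 to 494 CPM, against a median of 46.6 CPM and a highest of 36663 CPM among the eligible clusters. Their lower end was set by the limit of 20 CPM. In the band of 30 to 50 CPM, 60 of 1627 clusters were chosen (3.69%), and in the bands of 20 to 30 and 50 to 100 CPM the numbers were 43 of 1668 (2.58%) and 37 of 1525 (2.43%). Above 100 CPM fewer were chosen, 8 of 772 (1.04%) up to 200 CPM and 2 of 631 (0.317%) at 200 CPM or more. The median range of eligible clusters was 1.7 in the lowest band and 2.66 in the highest, while the range from counting error alone ran the other way, 0.27 in the lowest band and 0.07 in the highest. CPM is not divided by transcript length, which the files do not give, so these bands order clusters by reads and not by molecules.

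**Figure D2:**
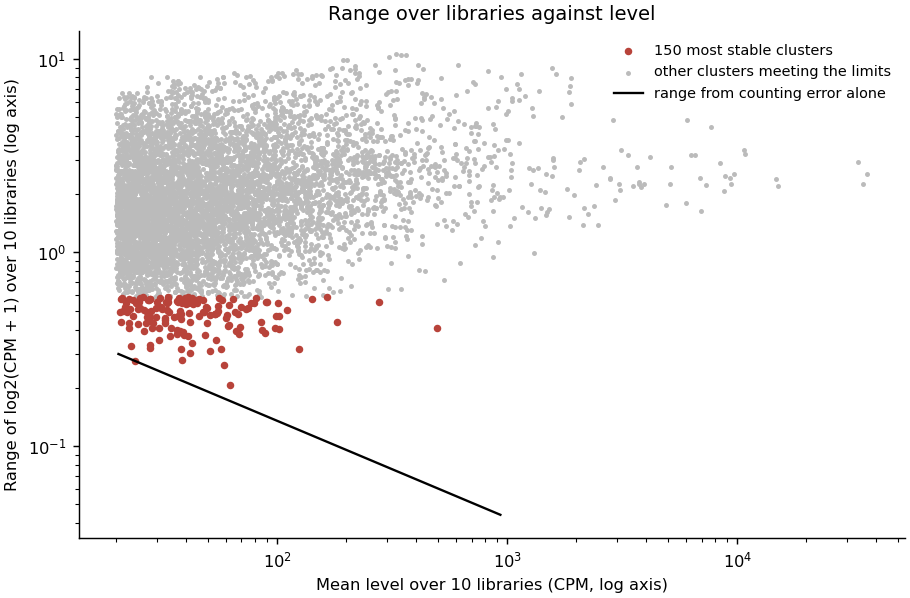
Range of log2(CPM + 1) over 10 libraries (vertical log axis) against mean level (horizontal log axis, CPM) for the 150 most stable clusters (red) and the other 6073 eligible clusters (grey); the black line is the range that counting error alone would give a flat cluster. The 150 clusters reach the line at low levels, where c165557.graph_c0 has a ratio of 1.003, and lie well above it at high levels.

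Most of the 150 clusters still varied by more than counting error. Their range was a median of 2.24 times the one that counting alone would give, and at most 1.5 times in 13 clusters and 2 times in 55. Over the eligible clusters the median was 10.3 times. Measured as chi-square per degree of freedom over the 10 libraries, the median was 5.81 for the 150 clusters and 121 for the eligible ones, and 5 of the 150 were at 2 or less.

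The clusters of highest CPM were precise enough to show small steps. The highest, c159118.graph_c1, had 518 and 544 CPM under drought, 484 and 523 CPM under submergence, 444 and 411 CPM in title-cold and 477 and 510 CPM in title-heat, against 507 and 523 CPM in control. The title-cold pair lay below the other 8 libraries, on counts of 4177 to 8059 per library. Its range of 0.41 was 6.68 times that from counting alone.

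Next came c166697.graph_c0, with 240 and 253 CPM under drought, 230 and 245 CPM under submergence, 321 and 282 CPM in title-cold and 254 and 338 CPM in title-heat, against 273 and 325 CPM in control. Drought and submergence lay below control. The libraries of title-heat stood 0.41 apart on the log2 scale, more than the 0.34 spanned by the group means. The cluster c158519.graph_c2 had 199 and 179 CPM under drought, 164 and 178 CPM under submergence, 208 and 172 CPM in title-cold and 153 and 156 CPM in title-heat, against 207 and 200 CPM in control. Title-heat was lowest and overlapped with no other group.

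In c165520.graph_c0 the levels were 150 and 168 CPM under drought, 149 and 140 CPM under submergence, 159 and 143 CPM in title-cold and 164 and 160 CPM in title-heat, against 210 and 199 CPM in control. All 8 treated libraries were below both controls. The fifth by CPM, c138675.graph_c0, had 139 and 132 CPM under drought, 114 and 124 CPM under submergence, 140 and 118 CPM in title-cold and 153 and 170 CPM in title-heat, against 170 and 160 CPM in control. Only title-heat overlapped with control in it.

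At the lower end, c158317.graph_c2 had 19.0 and 18.9 CPM under drought, 23.0 and 24.8 CPM under submergence, 20.1 and 20.7 CPM in title-cold and 23.9 and 21.5 CPM in title-heat, against 18.1 and 17.4 CPM in control. All treated libraries were above both controls. Of the other low clusters, c159628.graph_c0 had 21.4 and 25.4 CPM under drought, 17.3 and 20.7 CPM under submergence, 21.3 and 24.6 CPM in title-cold and 21.6 and 19.3 CPM in title-heat, against 21.3 and 16.7 CPM in control. The cluster c167082.graph_c0 had 19.2 and 21.2 CPM under drought, 23.5 and 18.3 CPM under submergence, 18.1 and 21.0 CPM in title-cold and 24.9 and 20.4 CPM in title-heat, against 22.7 and 21.3 CPM in control. The libraries of one group differed by as much as 0.33 and 0.35 on the log2 scale in these clusters, more than the 0.29 and 0.20 between group means.

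For most of the 150 clusters the groups still differed more than the libraries within them. The 5 group means spanned a median of 0.35 on the log2 scale, and the largest gap between libraries of one group had a median of 0.25. In 40 of the 150 clusters that gap exceeded the span of group means, as it did in 191 of the 6223 eligible clusters (3.07%). The highest and the lowest library belonged to the same group in 3 of the 150. The SD within groups had a median of 0.11 for the 150 clusters and 0.18 for the eligible ones.

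The widest gap within a group was in c150754.graph_c0, which had 36.2 and 37.3 CPM under drought, 44.5 and 51.3 CPM under submergence, 49.7 and 51.1 CPM in title-cold and 50.2 and 34.7 CPM in title-heat, against 52.1 and 48.7 CPM in control. Its title-heat libraries stood 0.52 apart on the log2 scale, one beside control and one below the drought pair. The widest span of group means, 0.56, was in c155278.graph_c0, which had 27.8 and 21.4 CPM under drought, 21.3 and 22.1 CPM under submergence, 27.2 and 27.9 CPM in title-cold and 23.6 and 24.8 CPM in title-heat, against 32.3 and 32.5 CPM in control. Every treated library was below control, with submergence lowest on average.

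With the TMM factors used for the choice, the highest value of a cluster fell in a submergence library more often than in any other group. Of the 150 clusters, 60 peaked in a submergence library, 24 in a drought library, 23 in title-cold, 26 in title-heat and 17 in control. The lowest value lay in title-cold for 43 clusters, in drought for 32, in title-heat for 26, in submergence for 19 and in control for 30. For these counts no share of eligible clusters is given. By group means, submergence was highest in 54 of the 150 (36%, against 25.3% of eligible clusters). Title-heat was highest in 29 (19.3% against 23%) and title-cold in 24 (16% against 13.7%). Drought was highest in 23 (15.3% against 22.4%) and control in 20 (13.3% against 15.5%). The lowest group mean was that of title-cold in 38 (25.3% against 27.3%) and of control in 38 (25.3% against 19.4%). It was that of drought in 29 (19.3% against 13.2%), of title-heat in 26 (17.3% against 11.1%) and of submergence in 19 (12.7% against 29%).

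The shifts behind these counts were small. Relative to each cluster's own mean, the median deviation of the 150 clusters was 0.09 and 0.05 on the log2 scale in the submergence libraries, −0.05 and −0.06 in title-cold, −0.02 and 0.01 in drought, 0.03 and 0.01 in title-heat and −0.05 and −0.03 in control. Over all eligible clusters the medians were wider, from −0.22 in a title-cold library to 0.18 in a title-heat library. In a principal component analysis of the 150 clusters the first component held 25.1% of the variance, with submergence at 1.69 and 1.56 at one end and control at −1.27 and −1.15 at the other. The second held 20.1%, with title-cold at −1.43 and −1.47 and title-heat at 1.02 and 1.14. Drought lay at −0.11 and 0.35 on the first component and title-heat at 0.26 and −0.15, so these groups overlapped there. On the second, drought lay at 0.37 and 0.21, control at 0.51 and 0.24 and submergence at −0.02 and −0.56, so drought and control overlapped.

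**Figure D3:**
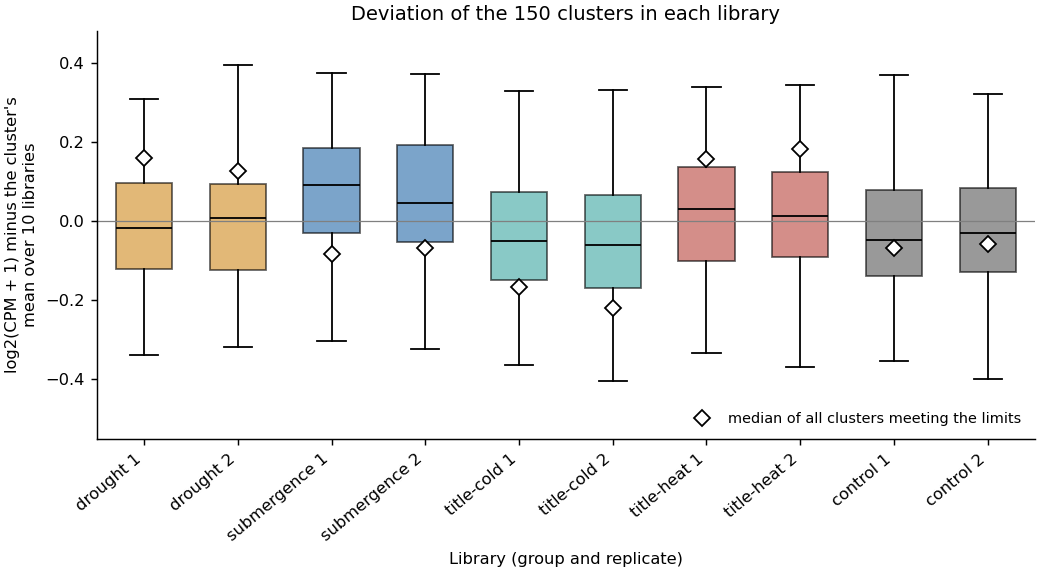
Deviation of log2(CPM + 1) from each cluster's own mean over 10 libraries (vertical axis) by library (horizontal axis); boxes show the middle 50% of the 150 clusters with the median, whiskers the lowest and highest, and diamonds the median of all 6223 eligible clusters. Box medians lie between −0.06 and 0.09, the diamonds between −0.22 and 0.18.

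Averaging clusters narrowed the spread. The mean log2 level of the 3 steadiest clusters ranged over 0.12 between libraries, that of the 8 steadiest over 0.12 and that of all 150 over 0.10, each less than the 0.21 of the steadiest single cluster. The lowest mean was in a title-cold library in each case. These averages are of the values that chose the clusters, and no library outside the choice was at hand to check them.

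Against control, the difference of group means in the 150 clusters had a median of 0.02 for drought, 0.09 for submergence, −0.01 for title-cold and 0.04 for title-heat on the log2 scale, with single clusters between −0.56 and 0.49. The median size of the difference, whatever its sign, was 0.13 for drought (0.57 in the eligible clusters), 0.18 for submergence (0.86), 0.16 for title-cold (0.58) and 0.14 for title-heat (0.46). Both submergence libraries lay above both controls in 71 of the 150 clusters (42.8% of eligible clusters) and below in 24 (43% of eligible clusters). For drought the numbers were 52 above (46.2%) and 42 below (32.7%), for title-cold 38 above (33.9%) and 44 below (45.9%), and for title-heat 53 above (51.2%) and 29 below (27%). All 4 comparisons share the control libraries.

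An edgeR quasi-likelihood fit over 27571 clusters gave the same comparisons with factors estimated on more clusters, which moved the fold changes of the 150 clusters down by a median of 0.10 for drought, 0.13 for submergence, 0.11 for title-cold and 0.07 for title-heat. Their median fitted log2 fold change was −0.08 for drought, −0.05 for submergence, −0.12 for title-cold and −0.03 for title-heat, so its sign differed between these TMM scalings for drought, submergence and title-heat. With total counts it was 0.43 for title-cold and 0.59 for submergence in the same fit. At an adjusted p below 0.05, 4 of the 150 were called under drought (26.9% of all clusters tested and 49.8% of eligible ones), 11 under submergence (49.3% and 66.4%), 7 in title-cold (23.3% and 49%) and 2 in title-heat (20.6% and 38.3%). All calls under drought, submergence and title-cold were decreases, and title-heat had 1 increase and 1 decrease, in the scaling that moved the fold changes down. In all, 134 of the 150 were called in no comparison, a count for which no share of eligible clusters is given. With 1 library left out the calls fell to 0 or 1 for drought (13.8% to 18.2% of all clusters tested), 3 to 5 for submergence (26.3% to 29%), 0 to 3 for title-cold (11.5% to 13.8%) and 0 for title-heat (9.3% to 10.4%). As these libraries chose the clusters, nothing is read from the counts.

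The largest fitted increases were small. In c166472.graph_c0 the levels were 97.3 and 88.4 CPM under drought, 92.9 and 78.6 CPM under submergence, 64.5 and 70.2 CPM in title-cold and 97.2 and 90.6 CPM in title-heat, against 65.6 and 67.5 CPM in control, a fitted log2 fold change of 0.43 ± 0.14 (SE) in title-heat. Drought, submergence and title-heat lay above control, and title-cold overlapped with it. In c159135.graph_c0 they were 65.3 and 67.9 CPM under drought, 74.4 and 71.4 CPM under submergence, 69.8 and 65.6 CPM in title-cold and 80.7 and 85.4 CPM in title-heat, against 59.2 and 59.5 CPM in control. Every treated library was above control, and the fitted log2 fold change in title-heat was 0.41 ± 0.12 (SE).

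The largest fitted decrease was that of c155278.graph_c0 under submergence, −0.72 ± 0.16 (SE) on the log2 scale. It was followed by c155496.graph_c0 in title-cold at −0.68 ± 0.15 (SE). That cluster had 47.4 and 38.9 CPM under drought, 45.0 and 39.7 CPM under submergence, 31.3 and 31.2 CPM in title-cold and 40.9 and 43.0 CPM in title-heat, against 46.5 and 45.9 CPM in control. Its title-cold libraries lay below the other 8.

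Whether a choice made without a treatment carries over to it was examined by repeating the choice on the 8 libraries outside that treatment. The treatment's own libraries then had no part in it, although the control libraries did. Of 150 clusters chosen without drought, 37 (24.7%) were called under drought, against 48.3% of the clusters that could be chosen. Without submergence 59 (39.3%) were called under submergence, against 66.2%, without title-cold 48 (32%) were called in title-cold, against 49.3%, and without title-heat 19 (12.7%) were called in title-heat, against 36.6%. With 1 library of the comparison left out of the fit these counts were lower for each treatment, as was the share called among all clusters tested.

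The changes in such clusters were smaller than in the clusters they were chosen from, but not absent. Their median size on the log2 scale was 0.26 for drought (0.58 in all that could be chosen), 0.26 for submergence (0.87), 0.33 for title-cold (0.61) and 0.21 for title-heat (0.45). A fitted change of 2-fold or more was found in 5 of 150 for drought (27.9% of the clusters that could be chosen), 9 for submergence (45.5%), 11 for title-cold (31.8%) and 4 for title-heat (22.8%). Single clusters moved far: the lowest value was −3.36 for submergence and −3.82 for title-cold, and the highest was 2.11 for drought. The 150 clusters chosen on all 10 libraries held 87 of those chosen without drought, 84 without submergence, 79 without title-cold and 100 without title-heat.

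**Figure D4:**
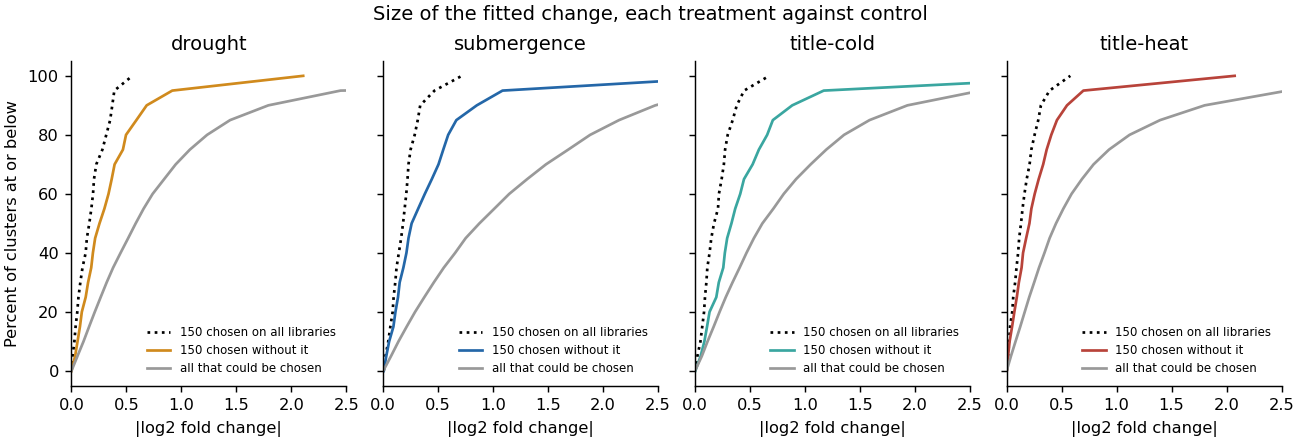
Percent of clusters (vertical axis) whose fitted log2 fold change against control is at or below the size on the horizontal axis, for each treatment; dotted lines are the 150 clusters chosen on all libraries, coloured lines the 150 chosen without that treatment's libraries and grey lines all clusters that could be chosen (values over 2.5 are not drawn). The median of the coloured line is 0.26 for drought and submergence, 0.33 for title-cold and 0.21 for title-heat.

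Which clusters counted as stable depended on how libraries were scaled. In raw counts the 150 clusters were not steady: their median count was 589.5 and 613 in the submergence libraries and 469 and 539.5 in title-cold, 365 and 372.5 under drought and 351 and 319 in title-heat, against 338.5 and 406 in control. Together they held 1.00 ± 0.05% (SD, n = 2) of all counts under submergence, 0.91 ± 0.01% in title-cold, 0.64 ± 0.01% under drought and 0.60 ± 0.02% in title-heat, against 0.69 ± 0.05% in control. The TMM factors that offset this were 1.41 and 1.31 in the submergence libraries, 1.22 and 1.26 in title-cold, 0.84 and 0.86 in drought and 0.80 and 0.75 in title-heat, against 0.86 and 0.94 in control. Scaled by total counts over the same clusters instead, the 150 had a median difference from control of 0.65 under submergence, 0.43 in title-cold, −0.07 under drought and −0.17 in title-heat on the log2 scale, and their ranges ran from 0.56 to 1.45 with a median of 1.06. With upper-quartile factors the median differences were −0.08 under submergence, −0.07 in title-cold, −0.29 under drought and −0.25 in title-heat.

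**Figure D5:**
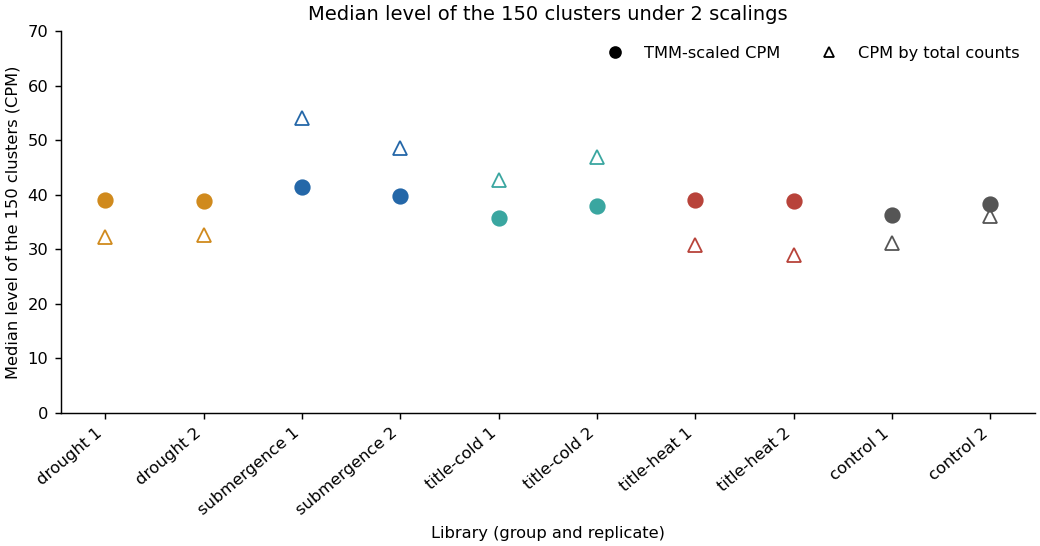
Median level of the 150 clusters in CPM (vertical axis, from 0) in each library (horizontal axis), with TMM factors (filled circles) and by total counts alone (open triangles). The circles lie between 35.8 and 41.4 CPM, and the triangles between 29.0 CPM in a title-heat library and 54.1 CPM in a submergence library.

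A ranking by total counts shared 5 of its 150 clusters with the ranking by TMM. The 5, named after their values were seen, were c148760.graph_c0, c158706.graph_c0, c149109.graph_c0, c167476.graph_c0 and c138675.graph_c0, with ranges of 0.69, 0.74, 0.62, 0.56 and 0.59 by total counts and of 0.47, 0.49, 0.55, 0.55 and 0.57 by TMM. As an example, c167476.graph_c0 had 953 and 1008 counts under drought, 1104 and 1100 counts under submergence, 1012 and 1111 in title-cold and 897 and 798 in title-heat, against 932 and 1009 in control. With TMM it had 102 and 105 CPM under drought, 77.6 and 71.3 CPM under submergence, 77.2 and 78.2 in title-cold and 99.7 and 97.4 in title-heat, against 99.9 and 95.3 in control. The submergence and title-cold libraries were highest in raw counts and lowest in scaled level.

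RLE size factors shared 123 of the 150 clusters with TMM, upper-quartile factors shared 72, and 62 were chosen under all 3. When 1 library was left out, 114 to 134 of the 150 were chosen again, and 102 in every such ranking. Apart from total counts and the other limits on level, 25 alternatives were run, and 35 of the 150 clusters were chosen in every one. All 8 of the steadiest clusters and c159118.graph_c1, the highest by CPM, were among the 35.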

How the data were processed

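Leaf RNA was sequenced in 10 libraries, 2 per group. The authors deposited whole-number read counts per cluster. Per the submitters' processing notes the tools include RSEM and DESeq 1.10.1, whose roles are not stated, and if the counts came from RSEM they are rounded estimates in which reads of similar sequences were shared out. For the assembly and the aligner, nothing is given in the sources used here. The table has bermudagrass and cold in its name while its column names fit the descriptions of these samples, and the species of the counts was not tested.

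Clusters were chosen and scaled as described, with a pseudocount of 1. For fits, filterByExpr (minimum count 10, total 15) kept 27571 clusters, TMM factors were used, and one robust quasi-likelihood model of edgeR 4.0.16 (R 4.3.3) with a coefficient per group was fitted to all 10 libraries, leaving 5 residual degrees of freedom. The Benjamini-Hochberg adjusted p threshold was 0.05. A standard error is the fold change divided by the root of its F. Counting ranges are 3.08 Poisson SDs of log2, the mean range of 10 normal draws, and cover counting error only. Procedures were tested on simulated data with less spread between libraries of a group than in these data. Alternatives used RLE, upper-quartile or total-count scaling, DESeq2 1.42.0, other limits and left-out libraries.

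The clusters and measures were chosen with earlier results of these data known. Named clusters are the 8 of smallest range, the 5 of highest and 3 of lowest CPM, 2 on each side of the limit, those with the widest gap within and between groups, and the 2 largest fitted increases and decreases. No column of the table was left out.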

Additional observations from a re-analysis of the deposited data

How the results depend on the processing

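Of the 150 clusters, 72 were chosen again with upper-quartile factors, 5 with total counts, 47 with a mean of at least 50 CPM, 10 with at least 100 CPM, 87 without both drought libraries, 84 without both submergence libraries, 79 without both title-cold libraries and 94 without both control libraries. The other alternatives, each library left out and another library size added after seeing the data among them, kept 100 to 150. With a higher limit on level fewer clusters are eligible.

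Among the 150 clusters, upper-quartile factors gave 32 calls for drought (28.8% of all clusters tested), 41 for submergence (49.2%), 17 for title-cold (23.2%) and 6 for title-heat (21.5%), and total counts gave 111 for submergence (56.6%), 56 for title-cold (32.1%) and 7 for title-heat (20.9%). RLE gave 11 for title-cold (23.3%). Without a filter on low counts edgeR called 0 for drought (20.4%), 6 for submergence (34.3%), 2 for title-cold (18.2%) and 0 for title-heat (17%), where 7 clusters each for drought and title-heat had an unadjusted p below 0.05. DESeq2 gave 2 for drought (25.9%) and 2 for title-heat (20.3%), and a fit of the compared groups alone gave 8 for title-heat (36%). With 1 library left out edgeR called 0 to 1 for drought, 3 to 5 for submergence, 0 to 3 for title-cold and 0 for title-heat, where 4 to 8 clusters had an unadjusted p below 0.05 for title-heat.

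For clusters chosen without a treatment, total counts gave 97 called for submergence (56.6% of all clusters tested) and 34 for title-heat (20.9%). With 1 library left out the calls were 16 to 22 for drought, 30 to 37 for submergence, 27 to 38 for title-cold and 5 to 8 for title-heat. Fits with 1 library left out have fewer samples. For each treatment they also called a smaller share of all clusters tested, as given above for the same fits. The drop in calls was thus not limited to the chosen clusters, and nothing about these clusters is read from it. The cause of the other moves was not tested.

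No effect shared by libraries of the same replicate number was seen: the difference between replicates correlated at −0.03 to 0.04 between groups. A pairing that leaves no such correlation cannot be seen in this way. With the replicate number as a block, edgeR called 2 of the 150 for drought (24.4% of all clusters tested), 8 for submergence (39.7%), 6 for title-cold (20.7%) and 0 for title-heat (18.3%). For title-heat 11 had an unadjusted p below 0.05 in that edgeR fit. Of the clusters chosen without a treatment, the blocked fit called 36 for drought, 54 for submergence, 44 for title-cold and 17 for title-heat, beside the same shares of all clusters tested. Groups of 2 libraries and counts of 145 to 8059 per library limit how small a difference can be seen.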

Other observations

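The identifiers hold a component number and a suffix. No component number was shared by any of the 150 clusters with another of them, and 25 of the 150 shared theirs with another row of the table (22.8% of eligible clusters did). The suffix graph_c0 was carried by 124 of the 150 (82.7%), by 78.1% of eligible clusters and by 85.6% of the whole table. Reads of similar sequences could have been split between rows that share a component number, and for these 25 clusters the levels are uncertain to that extent.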
